A study of Mus musculus with 2 samples.

Results

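Described here are 10 genes, 7 chains of cytokine receptors and 3 feedback inhibitors of cytokine signaling, in islet-infiltrating T cells of NOD mice with and without CD137. The receptor chains were *Il2rb*, *Il2rg*, *Il4ra*, *Il15ra*, *Il21r*, *Il6ra* and *Il6st*, and the feedback genes were *Socs1*, *Socs3* and *Cish*. They were chosen by symbol, and all 10 were found among the 27998 genes in the files. The data are 2 droplet libraries, 1 per genotype, counted in unique molecular identifiers (UMIs), so that 1 captured transcript counts 1 time, and each was made from the pooled islets of 6 female mice aged 9 to 10 weeks. Wild-type mice were NOD.Foxp3-EGFP, and knockout mice were NOD.Tnfrsf9-/-.Foxp3-EGFP, in which *Tnfrsf9*, the gene of CD137, is knocked out in every cell. Mice of both genotypes carried the reporter, in which green fluorescent protein (GFP) marks cells that express *Foxp3*. CD8 T cells and GFP+ CD4 regulatory T cells (Tregs) were sorted from the islet T cells and loaded into the same library. Cells are called CD8 if they held at least 2 UMIs of *Cd8a* and *Cd8b1* and none of *Cd4* and *Foxp3*, and Treg if they held no *Cd8a* or *Cd8b1* UMI and at least 1 UMI of *Cd4*, *Foxp3*, *Il2ra* and *Ikzf2*.

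A cytokine receptor is built from chains that several cytokines share. The common gamma chain, encoded by *Il2rg*, pairs with the beta chain of the IL-2 and IL-15 receptors (*Il2rb*), with the IL-4 receptor alpha chain (*Il4ra*) and with the IL-21 receptor (*Il21r*), while IL-6 binds *Il6ra* and signals through gp130, the product of *Il6st*. Receptor engagement activates JAK kinases and STAT transcription factors, and the STATs turn on *Cish*, *Socs1* and *Socs3*, whose products then damp the same receptors, so that their transcripts are widely read as signs of recent cytokine signaling. *Foxp3*+ Tregs carry the high-affinity IL-2 receptor and depend on IL-2, and *Cish* is best known as a target of STAT5, which IL-2 activates.

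The promoters of the feedback genes are shown because STAT proteins bind a spaced palindrome, TTCNNNGAA, that can be read directly in them. The RefSeq promoter table (GRCm38.p6, 250 bases before to 50 after the start of transcription, 300 bases in all) held 9 of the 10 genes, all but *Il2rb*, and capitals mark each TTCNNNGAA. The motif was also searched with 4 free bases in place of 3. Either form reads the same on both strands, and the sequences run 5′ to 3′ on the strand of the gene, which is the plus strand of chr9:107296409-107296708 for *Cish*, the minus strand of chr11:117969317-117969616 for *Socs3* and the minus strand of chr16:10785487-10785786 for *Socs1*.
Cish: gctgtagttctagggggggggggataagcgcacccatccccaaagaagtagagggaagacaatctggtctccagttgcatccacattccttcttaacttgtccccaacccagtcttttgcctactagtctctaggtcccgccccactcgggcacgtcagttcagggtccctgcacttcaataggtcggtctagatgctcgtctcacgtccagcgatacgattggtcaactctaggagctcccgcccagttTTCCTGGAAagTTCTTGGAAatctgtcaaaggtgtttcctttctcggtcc
Socs3: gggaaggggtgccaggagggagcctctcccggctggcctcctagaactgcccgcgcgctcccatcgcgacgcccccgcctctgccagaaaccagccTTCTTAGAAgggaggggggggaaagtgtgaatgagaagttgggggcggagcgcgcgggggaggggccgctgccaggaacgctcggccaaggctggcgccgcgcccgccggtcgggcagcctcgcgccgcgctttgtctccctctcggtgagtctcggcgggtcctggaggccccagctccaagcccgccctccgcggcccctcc
Socs1: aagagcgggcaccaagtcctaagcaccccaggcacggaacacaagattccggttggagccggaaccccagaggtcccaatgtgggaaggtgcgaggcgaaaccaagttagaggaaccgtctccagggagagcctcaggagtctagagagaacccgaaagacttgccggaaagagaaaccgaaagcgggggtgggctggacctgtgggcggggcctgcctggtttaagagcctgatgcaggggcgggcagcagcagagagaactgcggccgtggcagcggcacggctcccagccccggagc
*Cish* held 2 matches to TTCNNNGAA (TTCCTGGAA and TTCTTGGAA), the first of which begins at the start of transcription of this table and the second 11 bases further on. The windows of *Cish* and *Socs3* lie wholly within these genes as annotated in GENCODE (chr9:107296026-107302784 and chr11:117966079-117970047). For these genes the starts of the RefSeq table and of GENCODE thus differ. *Socs3* held 1 match (TTCTTAGAA), and *Socs1* and the 6 receptor chains in the table held none of either form in this window. Over 32851 promoters of the same length, 8.30% held TTCNNNGAA at least once, 0.457% held it at least 2 times and 6.95% held the form with 4 free bases, which none of the 9 genes held. A match describes the letters of the window and is no measure of binding.

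Neither genotype had a second library, so nothing was tested. Levels are given as CPM: all UMIs of a gene in a pool of cells were added up and scaled to a pool total of 1000000 UMIs. Their 95% intervals, and those of ratios and shares, describe the counting of UMIs or cells, while variation from mouse to mouse was hidden by pooling. The CD8 pools held 891 wild-type and 1200 knockout cells (7014920 and 7908290 UMIs), and the Treg pools 1552 and 1444 cells (8888924 and 8152788 UMIs). Median UMIs per cell were higher in CD8 T cells (6076 and 5275) than in Tregs (4302 and 4308.5). Each library had a further 271 cells of neither class. The libraries shared 16 cell barcodes, 15 of them among the cells kept, out of 2714 wild-type and 2915 knockout cells. *Cd3e* was detected in 92.1% to 97.3% of the cells of each pool, *Cd8a* in 97.0% and 96.5% of CD8 T cells and *Ikzf2* in 95.4% and 93.6% of Tregs. *Foxp3* itself was detected in only 13.2% of wild-type and 19.5% of knockout Tregs. *Tnfrsf9* stood at 106 CPM in wild-type and 32.0 in knockout CD8 T cells, and at 337 and 110 in Tregs, so transcripts of the targeted gene were lower in both knockout pools but still present. Summed over each list of marker genes, B cell genes reached 0.143 to 1.39 CPM over the 4 pools, NK cell genes 0.112 to 1.64, erythroid genes at most 0.428, pancreatic endocrine genes 10.4 to 22.0 and acinar genes 2.28 to 20.9. The myeloid list (145 to 306) came almost wholly from *Cst3* and *Cd68*, with *Lyz2* at 1.47 or less and *Csf1r* at 0.126 or less, and the stromal and endothelial list (40.3 to 94.3) from *Pecam1*. *Pecam1* was higher in the knockout in both classes (39.9 and 76.2 in CD8 T cells, 66.4 and 93.0 in Tregs), and the acinar list was higher too (2.28 and 8.73, 8.32 and 20.9), and the part of either in the results was not tested.

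All 10 genes were higher in Tregs than in CD8 T cells of the wild-type library, and 8 of them by at least 1.5-fold, all but *Il2rg* and *Il21r*. None was lower by that much. Over all genes with at least 50 UMIs in the compared pools, 17.1% were at least 1.5-fold higher in wild-type Tregs and 7.37% at least 1.5-fold lower. The median log2 ratio of Treg over CD8 was 0.94 over the 10 genes and 0.11 over all 10026 genes compared. In the knockout library the 10 ratios were again above 0, those of *Il2rg* and *Il15ra* within counting error, with a median of 0.39 (0.15 over all 10097 genes), and 4 of them passed 1.5-fold (*Il2rb*, *Il4ra*, *Socs3* and *Cish*) and none was lower by as much, where 15.5% of all genes were that much higher and 6.57% that much lower. The comparisons between classes and between genotypes share the same 4 pools, so they are not independent of each other.

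**Figure D1:**
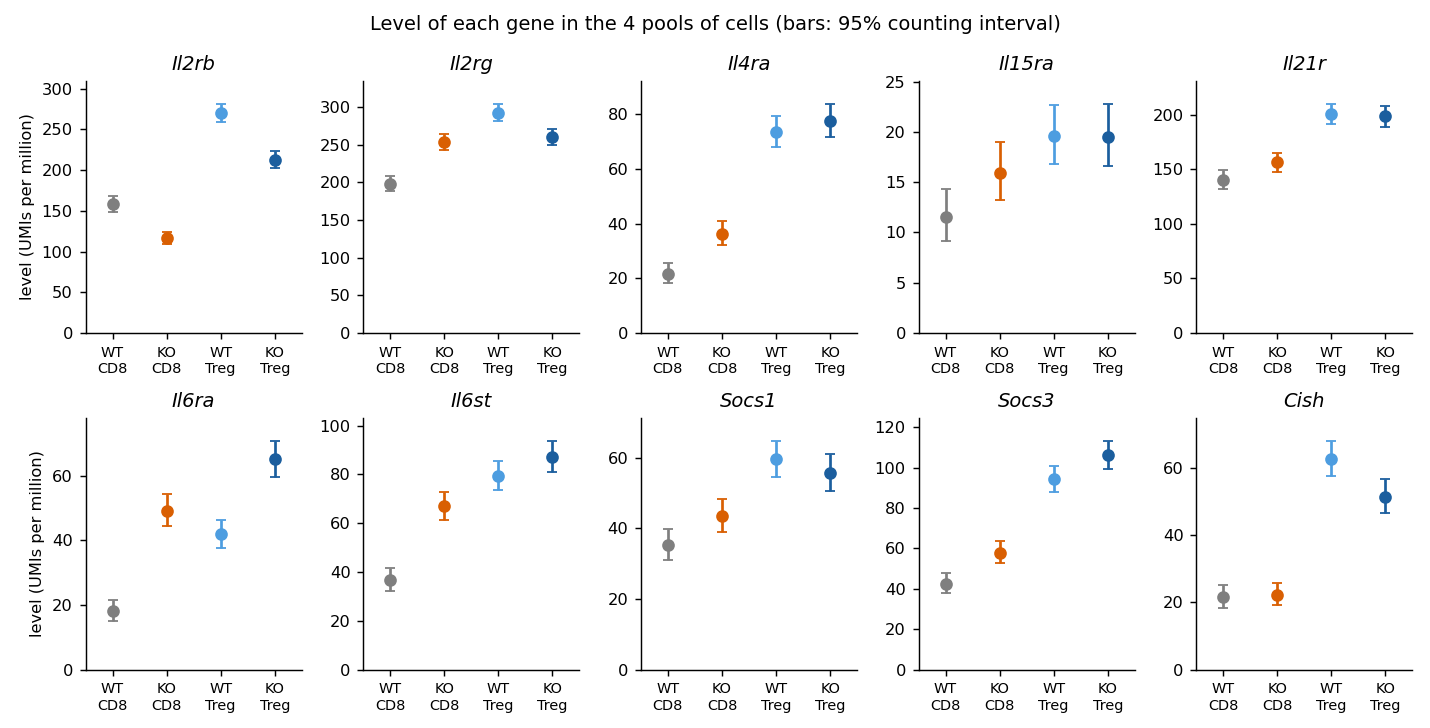
Level of each of the 10 genes (CPM, vertical axis, from 0) in wild-type (WT) and knockout (KO) CD8 T cells and Tregs (horizontal axis); points are pools of cells and bars are 95% exact Poisson intervals. Wild-type CD8 T cells sit lowest for every gene but *Il2rb*, which is lowest in knockout CD8 T cells at 116 CPM.

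Cells with naive T cell transcripts were more frequent in the knockout, as given further on with the genotype ratios at matched levels of those transcripts. In CD8 T cells 9 of the 10 genes had a higher level in the knockout and *Il2rb* had a lower one. The 3 that passed 1.5-fold were *Il6ra*, *Il6st* and *Il4ra*, and no gene of the set was 1.5-fold lower. Among all 9770 genes compared in CD8 T cells 11.4% were at least 1.5-fold higher and 6.80% at least 1.5-fold lower in the knockout, and the median log2 ratio of knockout over wild type was 0.40 over the 10 genes against 0.03 over all. In Tregs 1 gene passed 1.5-fold, *Il6ra*, which was higher, and none was lower by that much, beside 5.21% and 2.19% of all 10157 genes. The median over the 10 genes in Tregs was -0.01, with 4 ratios above and 6 below 0, and that over all genes was 0.04. The interval of each of these ratios is given below with its gene and covers counting error only. How many of all genes had intervals that did not include 0 was not counted.

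**Figure D2:**
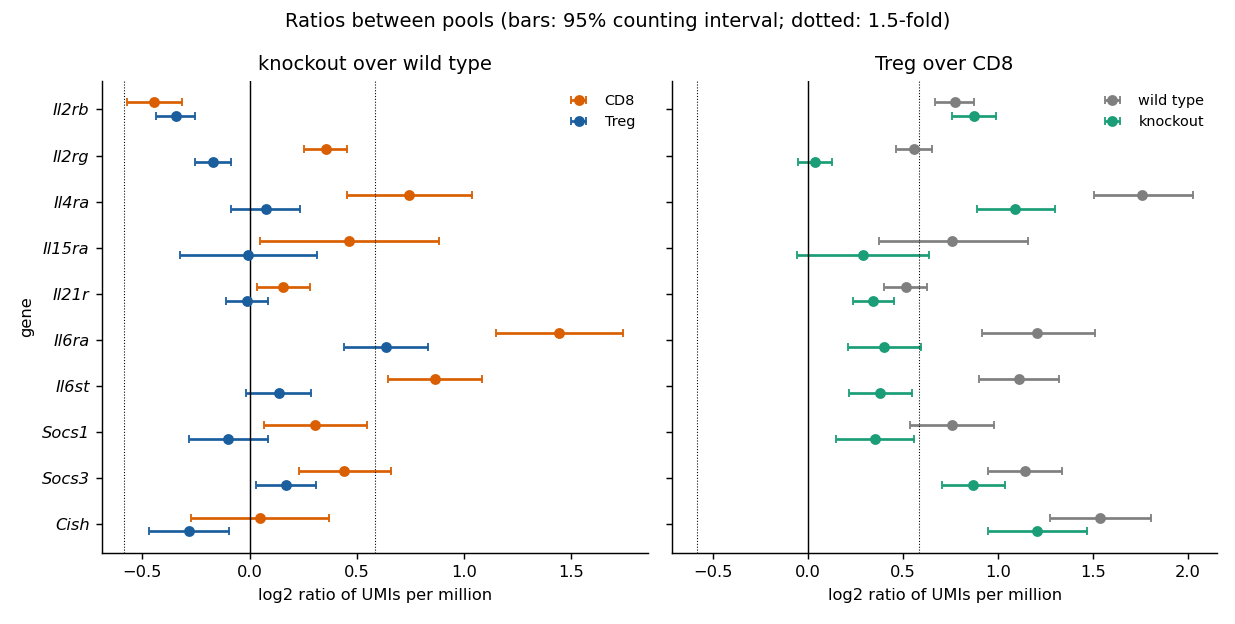
Log2 ratio of CPM for each gene, knockout over wild type on the left (CD8 T cells and Tregs) and Treg over CD8 on the right (wild type and knockout); bars are 95% exact conditional intervals, the solid line is no difference and dotted lines mark 1.5-fold. On the left, *Il6ra* in CD8 T cells lies farthest from 0 at 1.44, and *Il2rb* lies below 0 in both classes.

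*Il2rb* (chr15:78479256-78495271, minus strand, GRCm38) encodes the beta chain that IL-2 and IL-15 share. Its level was 158 CPM in wild-type CD8 T cells, 116 in knockout CD8 T cells, 270.2 in wild-type Tregs and 213 in knockout Tregs. It was the single gene of the set whose level was lower beyond counting error in the knockout in both classes, and no 2 of its 4 intervals overlapped. The log2 ratio of knockout over wild type was -0.44 in CD8 T cells (interval -0.57 to -0.32) and -0.34 in Tregs (-0.43 to -0.25). Treg levels exceeded CD8 levels by log2 ratios of 0.77 (wild type) and 0.87 (knockout).

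*Il2rg* (chrX:101264378-101268255, minus strand), the common gamma chain, was higher in the knockout in CD8 T cells and lower in Tregs. It stood at 198 CPM in wild-type CD8 T cells, 253 in knockout CD8 T cells, 292 in wild-type Tregs and 259.8 in knockout Tregs. The knockout CD8 level was above the wild-type one by a log2 ratio of 0.35 (0.25 to 0.45), and the knockout Treg level was below its wild-type counterpart by -0.17 (-0.25 to -0.09). The class difference was thus wide in the wild type (log2 ratio 0.56, 0.47 to 0.66) and within counting error in the knockout (0.04, -0.05 to 0.13). *Gm20489*, a gene annotated over *Il2rg* on the same strand, had 0 UMIs in both libraries.

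*Il15ra* (chr2:11705290-11734317, plus strand), which presents IL-15 to the beta and gamma chains, rested on the fewest UMIs of the set. Wild-type CD8 T cells held 81 UMIs (11.5 CPM), knockout CD8 T cells 126 (15.9), wild-type Tregs 174 (19.6) and knockout Tregs 159 (19.5). The log2 ratio of knockout over wild type was 0.46 in CD8 T cells, with an interval from 0.05 to 0.89, and -0.01 in Tregs (-0.32 to 0.31). In the order of its levels, wild-type CD8 T cells were lowest by that ratio, and among the 3 other pools no neighbours differed beyond counting error (knockout Tregs over knockout CD8 T cells 0.29, -0.05 to 0.64).

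*Il4ra* (chr7:125552120-125579474, plus strand), the chain that binds IL-4 and IL-13, had the largest class ratio of the set in wild-type cells. CD8 T cells held 21.7 CPM in wild-type cells and 36.3 in knockout cells, and Tregs 73.5 and 77.4. The log2 ratio of Treg over CD8 was 1.76 in wild-type cells (1.505 to 2.03) and 1.09 in knockout cells (0.89 to 1.30). Between genotypes it was 0.74 in CD8 T cells (0.46 to 1.04) and 0.08 in Tregs (-0.08 to 0.24).

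*Il21r* (chr7:125603429-125633570, plus strand) lies downstream of *Il4ra* on the same chromosome and encodes the receptor of IL-21, a cytokine made by helper T cells. Its levels lay close together between genotypes. They were 140.1 and 156 CPM in wild-type and knockout CD8 T cells and 200.2 and 198 in Tregs. The knockout over wild-type log2 ratio was 0.16 in CD8 T cells (0.04 to 0.28) and -0.01 in Tregs (-0.11 to 0.08).

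The IL-6 receptor pair had the largest genotype ratios of the set in CD8 T cells. *Il6ra* (chr3:89864059-89913196, minus strand), which binds IL-6, stood at 18.1 CPM in wild-type CD8 T cells (127 UMIs) and 49.2 in knockout CD8 T cells (389 UMIs). In Tregs it stood at 41.8 in wild-type cells and 65.0 in knockout cells. Its log2 ratio of knockout over wild type was 1.44 in CD8 T cells (1.15 to 1.74), a 2.72-fold difference, and 0.64 in Tregs (0.44 to 0.83). The level in knockout CD8 T cells was above that in wild-type Tregs by a log2 ratio of 0.23 (0.02 to 0.44), and wild-type CD8 T cells lay below every other pool. An antisense gene at its 5′ end, *Gm42809*, held 22 and 30 UMIs in the whole libraries.

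*Il6st* (chr13:112464070-112510086, plus strand), the gp130 chain that IL-6, IL-11 and leukemia inhibitory factor share, followed the same order in CD8 T cells with 36.8 CPM in wild-type cells and 66.9 in knockout cells, a log2 ratio of 0.86 (0.65 to 1.08). With cells thinned to 2000 UMIs this ratio was 0.35, below 1.5-fold. Tregs held 79.4 and 87.2 CPM, and that ratio of 0.13 had an interval that included 0 (-0.02 to 0.29). The class difference was 1.11 in wild-type cells and 0.38 in knockout cells, both beyond counting error.

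The 3 feedback genes together held 99.4 CPM in wild-type CD8 T cells, 124 in knockout CD8 T cells, 216 in wild-type Tregs and 213 in knockout Tregs. Their sum was higher in knockout than wild-type CD8 T cells by a log2 ratio of 0.32 (0.17 to 0.46) and differed by -0.02 in Tregs (-0.12 to 0.07). In CD8 T cells this ratio was 0.0066 with each cell thinned to 2000 UMIs drawn at random and 0.18 with each cell given the same weight, and median UMIs per CD8 T cell differed between the libraries. The part of depth in it was not tested further. Within a genotype the sum was higher in Tregs by 1.12 in wild-type cells and 0.78 in knockout cells.

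*Cish* (chr9:107296026-107302784, plus strand), which binds the activated IL-2 receptor beta chain and dampens STAT5 signaling, was the feedback gene that separated the classes most. CD8 T cells held 21.5 CPM in wild-type cells and 22.3 in knockout cells, and Tregs 62.5 and 51.4. The genotypes differed within counting error in CD8 T cells (log2 ratio 0.05, -0.27 to 0.37), and the knockout level was lower in Tregs (-0.28, -0.47 to -0.10). *Cish* and *Il2rb* were thus both lower in knockout Tregs beyond counting error. *Il2ra*, another chain of the IL-2 receptor and part of the Treg rule, was higher there, at 146 CPM in wild-type and 187 in knockout Tregs. The share of Tregs with a *Cish* UMI differed by -4.32 percentage points as counted (-7.29 to -1.32). With cells thinned to 3000 UMIs it differed by -0.31 (-3.29 to 2.68). An antisense gene within *Cish*, *Gm17041*, had 0 UMIs.

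*Socs1* (chr16:10782240-10785536, minus strand), the inhibitor of JAK kinases that interferon gamma and IL-2 induce, had 35.2 CPM in wild-type and 43.5 in knockout CD8 T cells, and 59.5 and 55.6 in Tregs. The log2 ratio of knockout over wild type was 0.30 in CD8 T cells (0.06 to 0.55) and -0.10 in Tregs (-0.28 to 0.08). With cells thinned to 2000 UMIs the CD8 ratio was -0.04.

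*Socs3* (chr11:117966079-117970047, minus strand), which binds gp130 and blocks IL-6 signaling, had 42.6 CPM in wild-type and 57.9 in knockout CD8 T cells. Tregs held 94.2 and 106 CPM. It was the feedback gene that was higher in the knockout in both classes, by log2 ratios of 0.44 (0.23 to 0.66) and 0.17 (0.03 to 0.31). With cells thinned to 2000 UMIs the CD8 ratio was 0.14. *Il6ra* likewise was higher in both knockout pools, and *Il6st* in the CD8 pool.

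The genotypes also differed in how many cells carried naive T cell transcripts. A naive list of *Ccr7*, the receptor that guides T cells to lymph nodes, and *Lef1*, a transcription factor of naive T cells, was counted in each cell thinned to 2000 UMIs. Levels of the 10 genes were then taken from all UMIs of the cells with 0, 1 and 2 or more. Among CD8 T cells, 2 or more were found in 17.2% (wild type) and 40.5% (knockout), and among Tregs in 9.21% and 13.6%. These groups are ranges of a count and not cell types. *Il6ra* had the largest ratio along the list in CD8 T cells, with 7.68 CPM in wild-type CD8 T cells with no naive-list UMI (628 cells), 28.2 in those with 1 (96 cells) and 77.6 in those with 2 or more (150 cells). In knockout CD8 T cells the same steps were 18.3, 58.2 and 93.3. The log2 ratio of the highest over the lowest group was 3.34 in wild-type and 2.35 in knockout CD8 T cells, and 0.76 and 1.04 in Tregs.

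**Figure D3:**
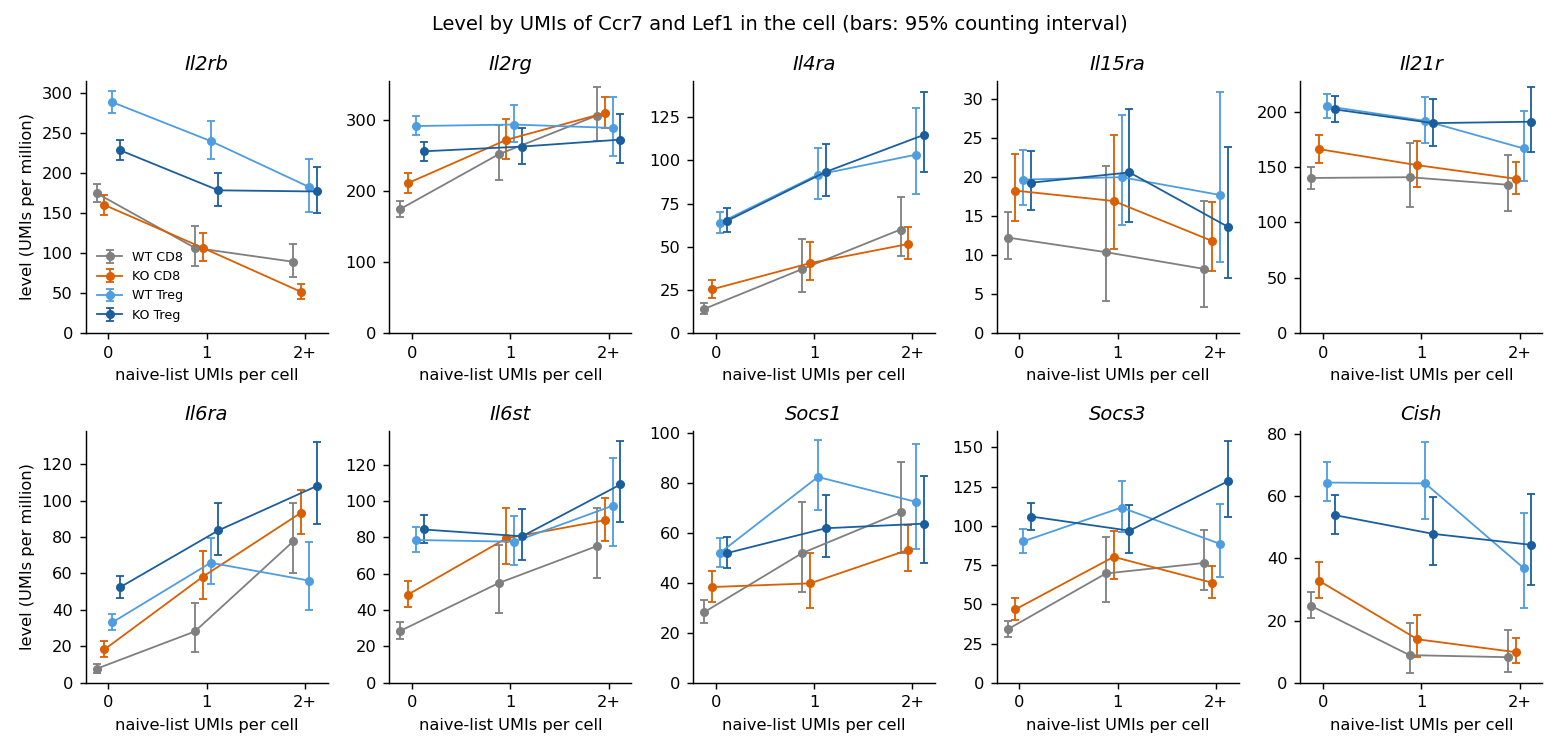
Level of each gene (CPM, vertical axis, from 0) in cells with 0, 1 and 2 or more UMIs of *Ccr7* and *Lef1* after thinning (horizontal axis), for the 4 pools; bars are 95% exact Poisson intervals and lines join the groups of 1 pool. *Il6ra*, *Il4ra* and *Il6st* climb with the list in CD8 T cells while *Il2rb* and *Cish* go down, and the *Il2rb* intervals of the CD8 pools overlap in cells with no naive-list UMI (175 and 160.4).

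*Il4ra*, *Il6st*, *Il2rg*, *Socs1* and *Socs3* were also higher in CD8 T cells with 2 or more naive-list UMIs than in those with none, with log2 ratios of 2.11, 1.40, 0.81, 1.27 and 1.17 in wild-type cells and 1.03, 0.88, 0.55, 0.47 and 0.45 in knockout cells. *Il2rb* and *Cish* ran opposite to them. *Il2rb* was at 175 CPM in wild-type CD8 T cells with no naive-list UMI and at 89.3 in those with 2 or more, and in the knockout at 160.4 and 51.6. *Cish* was at 24.7 and 8.23 in wild-type cells and at 32.8 and 9.85 in knockout cells. Along this list *Cish* thus ran opposite to *Socs1* and *Socs3* in CD8 T cells.

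Within the same range of the list the genotype ratios in CD8 T cells changed, in different directions for different genes. Among CD8 T cells with no naive-list UMI, *Il2rb* differed by a log2 ratio of -0.13 (-0.27 to 0.02) in place of -0.44 over all CD8 T cells, and among those with 2 or more by -0.79 (-1.21 to -0.36). For *Il6ra* the interval of the log2 ratio ran from 0.68 to 1.83 in the cells with none (7.68 and 18.3 CPM), and the ratio was 0.27 (-0.13 to 0.68) in those with 2 or more, against 1.44 over all. *Il4ra* differed by 0.86 (0.42 to 1.31) and -0.22 (-0.69 to 0.28) in these groups, and *Il6st* by 0.77 (0.46 to 1.08) and 0.25 (-0.16 to 0.67). For *Cish* the cells with none gave 0.41 (0.05 to 0.77), where all CD8 T cells together gave 0.05. In cells with none, *Socs1* differed by 0.44 (0.11 to 0.78), *Socs3* by 0.46 (0.16 to 0.76) and the sum of the feedback genes by 0.44 (0.25 to 0.63). In cells with 2 or more these were -0.36 (-0.81 to 0.11), -0.26 (-0.68 to 0.18) and -0.27 (-0.57 to 0.04). Reweighted so that the 3 groups had the wild-type shares of UMIs, the knockout CD8 ratios were -0.16 for *Il2rb*, 0.21 for *Il2rg*, 0.46 for *Il4ra*, 0.78 for *Il6ra*, 0.62 for *Il6st* and 0.41 for *Cish*, closer to 0 than over all CD8 T cells for the first 5 and further from it for *Cish*.

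In Tregs the ratios of *Il2rb* and *Il6ra* had the same sign in every range of the naive list. *Il2rb* differed between genotypes by -0.34 (-0.44 to -0.23) in Tregs with no naive-list UMI, by -0.43 (-0.65 to -0.21) in those with 1 and by -0.05 (-0.40 to 0.31) in those with 2 or more. *Il6ra* differed by 0.66 (0.40 to 0.93), 0.34 (-0.03 to 0.72) and 0.94 (0.39 to 1.53) in the same groups. With the knockout groups reweighted to the wild-type shares, the Treg ratios were -0.34 for *Il2rb*, 0.61 for *Il6ra* and -0.26 for *Cish*.

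Cells with at least 2 thinned UMIs of *Mki67*, *Top2a*, *Birc5*, *Cdk1* and *Ube2c*, called proliferating, were compared with cells that had none. Proliferating cells numbered 125 wild-type and 66 knockout CD8 T cells and 105 and 116 Tregs. The summed level of the feedback genes was 53.4 CPM in proliferating and 122 in list-negative wild-type CD8 T cells, 71.6 and 129 in knockout CD8 T cells, 111 and 239.5 in wild-type Tregs, and 81.7 and 248 in knockout Tregs. *Il6ra* was almost absent from proliferating CD8 T cells, at 0.568 CPM in wild-type cells (1 UMI) and 2.14 in knockout cells (2 UMIs), against 26.9 and 59.1 in cells with none of the list. *Il2rb* behaved differently by class, since in the knockout it was higher in proliferating CD8 T cells (177 against 102 CPM) and lower in proliferating Tregs (159.6 against 231). In wild-type CD8 T cells it was at 158 and 155 (log2 ratio 0.03, -0.18 to 0.23), and in wild-type Tregs it was lower in proliferating cells as well (-0.27, -0.44 to -0.09).

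Activation was read from *Pdcd1*, *Lag3*, *Havcr2* and *Tox* in CD8 T cells and from *Lag3*, *Itgae*, *Tigit* and *Icos* in Tregs. *Il2rb* was higher in cells with 2 or more UMIs of the list than in those with none in all 4 pools, with log2 ratios of 0.66 and 1.38 in wild-type and knockout CD8 T cells and 0.99 and 0.52 in Tregs. Between genotypes, *Il2rb* in Tregs differed by a log2 ratio of 0.01 (-0.17 to 0.19) in cells with none of the list and by -0.46 (-0.58 to -0.34) in those with 2 or more, while in CD8 T cells it differed by -0.79 (-1.11 to -0.47) and -0.07 (-0.23 to 0.08). *Cish* was at 73.4 and 43.7 CPM in wild-type Tregs with 2 or more and with none, and at 61.0 and 44.8 in knockout Tregs. In knockout CD8 T cells it was at 35.5 and 9.44, and in wild-type CD8 T cells at 23.1 and 21.1, a difference within counting error. *Socs1* ran the other way in all 4 pools, with log2 ratios from -0.94 to -0.39.

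Wild-type cells were also divided by detection of *Tnfrsf9* itself. Wild-type Tregs with a *Tnfrsf9* UMI had 83.9 CPM of *Cish*, against 50.5 in those without (log2 ratio 0.73, 0.48 to 0.98), and also more *Il2rb* (323 and 244) and *Il21r* (238 and 178). In wild-type CD8 T cells *Cish* was lower in cells with a *Tnfrsf9* UMI (9.84 and 23.3), with a wide interval (log2 ratio -1.25, -2.28 to -0.36). *Socs3* (25.0 and 46.0) and *Il6ra* (2.68, on 3 UMIs, and 21.1) were lower in them as well. The 2 classes thus differed in the direction of *Cish* by *Tnfrsf9*, and the difference itself was not tested.

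The share of cells with at least 1 UMI was compared after thinning each cell to 2000 UMIs, which left 874 wild-type and 1184 knockout CD8 T cells and 1476 and 1389 Tregs, and 17, 16, 76 and 55 shallower cells were left out. *Il2rb* was detected in 26.0% of wild-type and 17.6% of knockout CD8 T cells, a difference of -8.40 percentage points (-12.1 to -4.80), and in 39.3% and 33.3% of Tregs (-6.03, -9.53 to -2.51). *Il6ra* was detected in 4.81% and 10.1% of CD8 T cells (5.33, 3.05 to 7.55), while in Tregs the shares were 10.2% and 14.1% (3.95, 1.56 to 6.36). *Il2rg* was detected in 35.1% and 40.6% of CD8 T cells, while in Tregs the shares were 47.0% and 41.8%, and *Il4ra* in 4.46% and 7.77% of CD8 T cells. All of these differences were beyond counting error and had the sign of the pooled levels. *Il6st*, at 9.04% and 11.3% of CD8 T cells, did not differ beyond it at this depth (2.28, -0.40 to 4.87), though it did at 3000 UMIs (10.2% and 17.9%). *Il21r* differed in CD8 T cells at 2000 UMIs (3.83, 0.132 to 7.46) and not at 3000 (2.49, -1.70 to 6.62). Without thinning the shares were 56.3% and 38.4% for *Il2rb* and 11.3% and 22.3% for *Il6ra* in CD8 T cells. Those of *Il2rg* then differed within counting error, by 0.888 percentage points in CD8 T cells (-2.95 to 4.77) and -3.16 in Tregs (-6.38 to 0.0572).

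**Figure D4:**
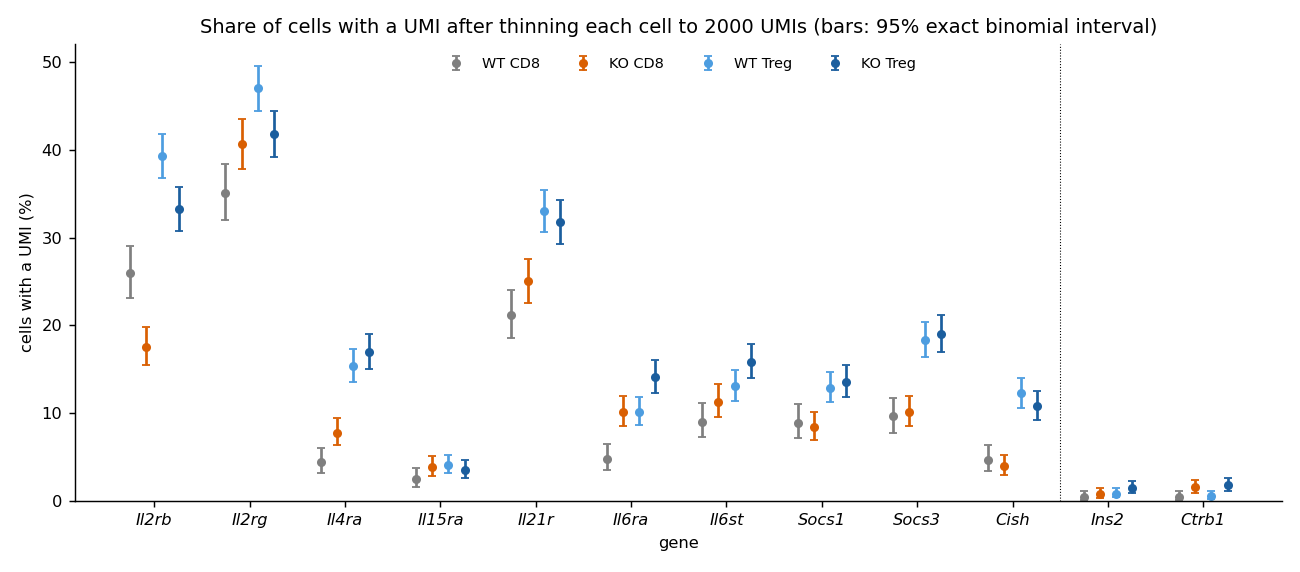
Share of cells with a UMI of each gene (percent, vertical axis, from 0) after thinning each cell to 2000 UMIs, in the 4 pools; bars are 95% exact binomial intervals, and the dotted line sets apart *Ins2* and *Ctrb1*, transcripts of beta and acinar cells. The intervals of the feedback genes overlap between genotypes within each class, and the 10 genes lie between 2.52% and 47.0%, while *Ins2* and *Ctrb1* stay at or below 1.80%.

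No sorted cell type was without the 10 genes, so free RNA from the T cells themselves could not be gauged. Only free RNA from other cells of the pancreas was, by their transcripts. *Ins2* was detected in 0.458% to 1.51% and *Ctrb1* in 0.458% to 1.80% of thinned cells, below the share of every gene of the set in the same pool. *Ctrb1* was detected more often in the knockout in both classes, and its part in the results was not tested. At 2000 UMIs no feedback gene differed in share between genotypes beyond counting error. At least 1 of *Cish*, *Socs1* and *Socs3* was detected in 20.8% and 21.3% of wild-type and knockout CD8 T cells (difference 0.46 percentage points, -3.14 to 3.99), while in Tregs the shares were 35.3% and 35.9% (0.555, -2.95 to 4.06). Thinned to 3000 UMIs instead, the CD8 shares were 26.8% and 31.5% (4.74, 0.715 to 8.69), and without thinning 42.6% and 48.7%, so the CD8 result turned on the depth compared.

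Chains that form 1 receptor were counted in the same cells. *Il2rb* and *Il2rg* were detected together in 8.35% of wild-type and 6.08% of knockout CD8 T cells, while in Tregs the shares were 18.2% and 14.9%. At 3000 UMIs the CD8 difference was within counting error (-1.82 percentage points, -4.91 to 1.18) and the Treg difference was not (-8.60, -12.2 to -4.95). Detection of *Il2ra*, *Il2rb* and *Il2rg* in 1 cell, the chains of the high-affinity IL-2 receptor, occurred in Tregs at 4.13% (wild type) and 4.46% (knockout), and the order turned at 3000 UMIs (10.8% and 8.42%, difference -2.42, -4.82 to -0.01) and without thinning (-2.73, -5.66 to 0.21). At 2000 UMIs it occurred in 0 of 874 and 0 of 1184 CD8 T cells, which allows shares of up to 0.343% and 0.253% if 3 cells are taken as the limit of a count of 0 (0.421% and 0.311% by the exact binomial interval). Without thinning it occurred in 23 and 25 CD8 T cells (2.58% and 2.08%). At 2000 UMIs *Il6ra* and *Il6st* were detected together in 0.458% and 0.929% of CD8 T cells, while in Tregs the shares were 1.69% and 2.88%. These shares count detection at the depth named and not the presence of the chains.

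Cells with a thinned UMI of a feedback gene were next compared with the other cells of the same pool. Wild-type Tregs with *Cish* (181 cells) had more *Il2ra* than Tregs without it (282 and 132 CPM, log2 ratio 1.09, 0.76 to 1.42), and the same held in the knockout (404 and 179, 1.17, 0.87 to 1.47). They also had more *Il2rb* (406 and 263 CPM in wild-type Tregs, 320.2 and 213 in knockout Tregs) and more *Socs2*, another STAT5 target (88.4 and 32.0, 140.1 and 56.5). *Il2ra* was higher in Tregs with *Socs1* too, by 0.57 (0.21 to 0.93) in the wild type and 0.88 (0.58 to 1.17) in the knockout. *Socs2* was higher with *Socs1* in knockout Tregs (0.98, 0.45 to 1.49) and not in wild-type ones (0.02, -0.87 to 0.81). *Il2rb* did not differ by *Socs1* beyond counting error in Tregs (0.20, -0.09 to 0.48, and -0.15, -0.52 to 0.19). *Pim1*, a kinase gene that STAT5 induces, was higher in cells with *Cish* in all 4 pools, with log2 ratios from 0.52 to 1.51. *Il6ra* did not differ beyond counting error by detection of *Cish* in any pool.

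Cells with *Socs3*, the brake on gp130, were compared in the same way. *Il6ra* was higher in Tregs with *Socs3* than in those without, at 86.8 and 53.5 CPM in wild-type cells (log2 ratio 0.70, 0.18 to 1.19) and 119 and 81.8 in knockout cells (0.55, 0.11 to 0.97). In CD8 T cells it was at 71.5 and 23.4 in wild-type cells (1.61, 0.53 to 2.58) and at 83.4 and 57.3 in knockout cells (0.54, -0.22 to 1.23). *Il2ra* in Tregs did not differ by detection of *Socs3* beyond counting error (0.03, -0.33 to 0.38, and -0.16, -0.49 to 0.16). *Socs1* was higher in Tregs with *Socs3* in both genotypes, by 0.92 and 0.77, and so was *Il21r*, by 0.69 (0.43 to 0.95) and 0.34 (0.05 to 0.62). *Il6st*, the gp130 chain, was at 0.09 (-0.43 to 0.59) and 0.41 (-0.02 to 0.83) in Tregs, and 0.91 (0.006 to 1.72) and -0.43 (-1.41 to 0.42) in CD8 T cells. *Il6ra* was higher with *Socs1* too in wild-type CD8 T cells (1.88, 0.84 to 2.83) and knockout Tregs (0.62, 0.14 to 1.09). It was within counting error in wild-type Tregs (0.23) and knockout CD8 T cells (0.74).

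Ranked by the smallest of their 4 log2 ratios over the pools, the genes most enriched in cells with *Cish* were *Mdfic*, *Ccl4*, *Coro2a*, *Chst11* and *Atxn7l1* (smallest ratio 0.95 to 0.63), out of 1075 genes with at least 10 thinned UMIs in the cells with *Cish* of every pool. *Ccl4* encodes a chemokine of activated T cells and had the widest range, 0.87 to 3.08. For *Socs1* they were *Tespa1*, *Irgm1*, *Ahcyl2*, *Cdkn2d* and *Ltv1* (0.66 to 0.49, of 2172 genes), and *Irgm1* is an interferon-induced GTPase. For *Socs3* they were *Elovl6*, *Zfp36*, *Cdkn2d*, *Il6ra* and *Pnpla7* (0.73 to 0.54, of 2397 genes), so that *Il6ra*, of the receptor chains here, was among them. The smallest *Il6ra* ratio, in knockout CD8 T cells, was within counting error (0.54, -0.22 to 1.23). *Il6ra* and *Socs3* both rose with the naive list in CD8 T cells, and the part of this in their shared detection was not tested. Cells of 1 pool are not replicates, and these ranks describe the 4 pools only.

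Other genes of cytokine signaling were counted from lists of receptor chains, JAKs and STATs, other SOCS proteins and brakes, STAT5 and STAT3 response genes, and cytokines. Of 53 such genes with at least 50 UMIs in CD8 T cells, 9 were at least 1.5-fold higher and 5 at least 1.5-fold lower in the knockout, with a median log2 ratio of 0.14, beside 11.4% and 6.80% of all genes. Among 54 in Tregs, 1 was higher and 2 were lower, and the median was 0.05, beside 5.21% and 2.19% of all genes. In CD8 T cells the largest ratios belonged to *Ifngr2*, a chain of the interferon gamma receptor (6.13 and 22.9 CPM, log2 ratio 1.90, 1.41 to 2.42), and *Il7r*, the IL-7 receptor of naive and memory cells (56.9 and 131, 1.21, 1.04 to 1.38). *Il10ra*, the IL-10 receptor, was lower (51.5 and 21.1, -1.29, -1.56 to -1.02). *Il12rb2* (1.06), *Socs2* (1.01) and *Il21* (0.93) were higher, and *Il1r2* (-0.99) and *Il12rb1* (-0.78) were lower, all on fewer than 150 UMIs.

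**Figure D5:**
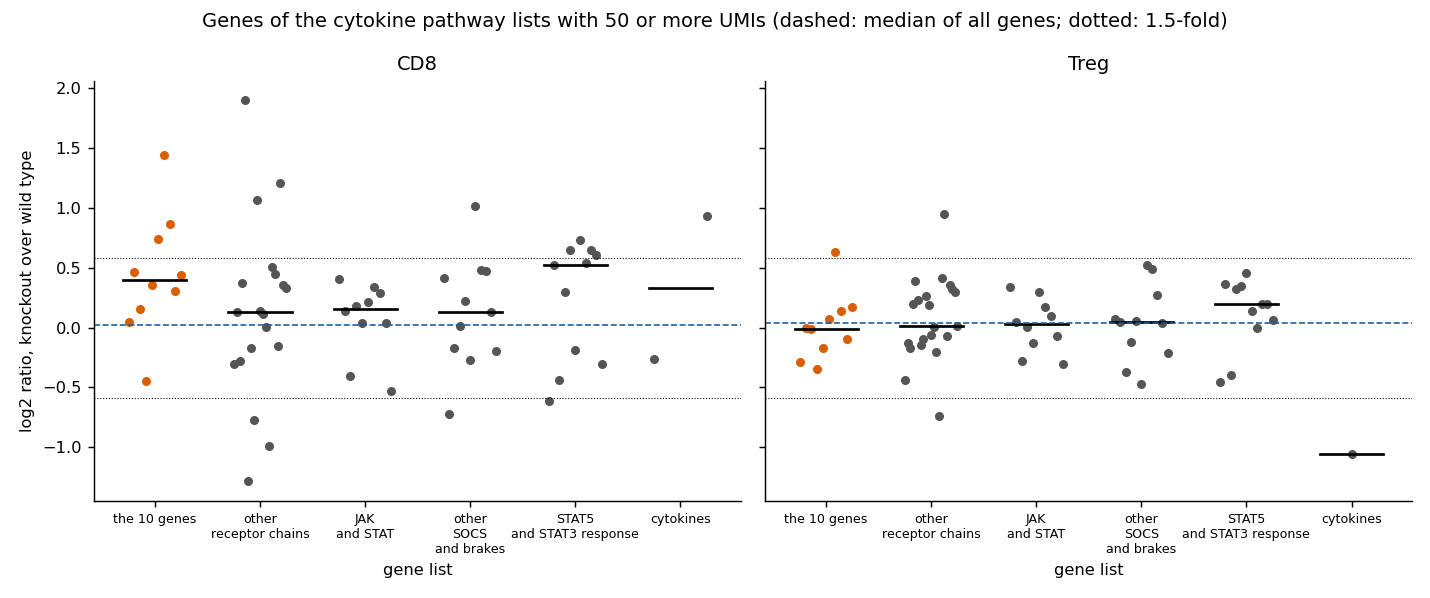
Log2 ratio of knockout over wild type (vertical axis) for the 10 genes (orange) and the genes of each cytokine signaling list (grey) with at least 50 UMIs, in CD8 T cells and Tregs; black bars are list medians, the dashed line is the median of all genes and dotted lines mark 1.5-fold. Of the list genes 9 lie above and 5 below the 1.5-fold lines in CD8 T cells, and 1 above and 2 below them in Tregs.

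By list, the 11 STAT5 and STAT3 response genes in CD8 T cells comprised 4 that were at least 1.5-fold higher and 1 that was lower, with a median log2 ratio of 0.52. Of all genes 11.4% were that much higher and 6.80% lower in CD8 T cells, and 5.21% and 2.19% in Tregs. The list ratios were taken over all cells of a class and not within ranges of the naive list. The response genes that were higher in CD8 T cells were *Myc* (0.73), *Pim1* (0.65), *Ccnd2* (0.65) and *Pim2* (0.60), and the lower one was *Batf* (-0.62). This list of response genes had none past 1.5-fold in either direction in Tregs and a median of 0.20. None of 10 JAKs and STATs passed 1.5-fold in either class, with medians of 0.16 in CD8 T cells and 0.03 in Tregs. Among other SOCS proteins and brakes *Socs2* was higher and *Pias3* lower in CD8 T cells. Of the other receptor chains 3 of 19 were higher and 3 lower in CD8 T cells, and 1 of 21 higher and 1 lower in Tregs, where *Il1rl1*, the IL-33 receptor, was higher (0.95, 0.62 to 1.27) and *Il1r2*, a decoy receptor of IL-1, lower (-0.74, -0.90 to -0.59). *Il2* in Tregs had a log2 ratio of -1.05 on 62 UMIs.

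Across classes the same lists divided more widely. In the wild type 22 of 54 genes were at least 1.5-fold higher in Tregs and 5 lower, and in the knockout 20 of 53 and 6. Of all genes 17.1% were that much higher and 7.37% lower in the wild type, and 15.5% and 6.57% in the knockout. The largest ratios of Treg over CD8 belonged to receptors that Tregs are known for, *Il1r1* (4.66 in wild-type cells and 4.04 in knockout cells), *Il1rl1* (4.29 and 4.56), *Il1r2* (4.12 and 4.37) and *Il2ra* (3.71 and 4.22). *Il2ra*, the IL-2 receptor alpha chain, is part of the Treg rule, so its difference is in part set by that rule. *Socs2* (3.79 and 3.29), *Pim1* (2.43 and 1.98) and *Tgfbr1* (2.21 and 2.15) were higher in Tregs as well. *Pim2* was lower in Tregs (-1.61 and -2.01), in contrast to *Pim1*.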

How the data were processed

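The wild-type and the knockout library were each made from CD8 T cells and GFP+ Tregs sorted from pooled islets with the Chromium 3′ version 2 kit. The authors deposited counts, the UMIs of 27998 genes in each barcode called a cell (2804 and 2991), which were not normalized. The submitters' processing notes name Cell Ranger 7.0.0 and mm10. The sources used here do not say if intronic reads entered the counts.

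Barcodes outside 200 to 5000 genes or above 20% mitochondrial UMIs were dropped, and the rest assigned to CD8 or Treg as described. UMIs were summed per pool. Levels carry exact Poisson, shares exact binomial (Clopper-Pearson), ratios exact conditional and share differences Newcombe intervals, all at 95%. Genes with at least 50 UMIs over 2 pools entered counts past 1.5-fold, and no test was made. No doublet caller was run: cells with markers of both lineages fell in neither class. Python 3.11.15 with numpy 2.4.6, pandas 2.3.3, scipy 1.17.1 and matplotlib 3.10.9 was used, and edgeR 4.0.16 in R 4.3.3 for TMM factors only. Alternatives were TMM scaling, thinning, equal weight per cell, other cell limits, class rules, count and fold limits, and leaving out proliferating cells, cells with the most UMIs or cells with markers of other types. The interval and thinning steps were tested on simulated data. Gene positions are those of GENCODE vM21 (GRCm38), where all 10 identifiers were found, and promoters those of RefSeq.

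The genes, the lists and the classes were chosen with earlier results of these data known. Named besides the 10 genes are *Tnfrsf9*, the 8 list genes with the largest ratio past 1.5-fold in each comparison, and the 5 genes most enriched in cells with each feedback gene. Others of the lists were named after their values were seen. A gene of the naive list and a gene of the pathway lists are not reported here, and the lists were used without them, a change made after seeing the data.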

Additional observations from a re-analysis of the deposited data

Results flagged for a closer look

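*Il2rg* and *Il10ra* had genotype ratios of opposite sign in the 2 classes, each beyond counting error. For *Il2rg* the log2 ratio of knockout over wild type was 0.35 in CD8 T cells and -0.17 in Tregs. For *Il10ra* it was -1.29 in CD8 T cells (51.5 and 21.1 CPM) and 0.23 in Tregs (36.8 and 43.2). Each value rests on 1 library per genotype, and no test was made of how the classes differ.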

How the results depend on the processing

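No paired analysis was possible because each genotype had 1 library, and for the same reason no replicate could be left out. Of 420 ratios of the 10 genes recomputed under the alternatives, 371 moved by less than the counting interval and 22 changed sign, of which 1 (*Socs1* in CD8 T cells, -0.04 after thinning) had an interval that excluded 0 as reported. The count of genes past 1.5-fold in CD8 T cells stayed within 1.5 times of the reported 3 under every alternative but a limit of 0.32 on the log2 scale, which gave 7 (25.4% of all genes were that much higher and 18.8% lower). The genes counted were not the same throughout: after thinning *Il6st* fell below 1.5-fold (0.35) and *Il15ra* passed it, and with the naive-list groups weighted *Il4ra* fell below it (0.46). In Tregs the 1 gene past 1.5-fold, *Il6ra*, dropped below it, for a count of 0, after thinning, with each cell given the same weight and with a looser CD8 and narrower Treg rule, and the limit of 0.32 gave 2 (18.5% and 8.54% of all genes). Treg over CD8 in the knockout gave 8 at that limit, against 4 (31.0% and 12.4% of all genes), and *Il2rb* was below 1.5-fold there (0.51) among cells with no naive-list UMI. In the wild type *Il6st* was below it after thinning (0.51). Keeping only cells with no naive-list UMI and weighting the naive-list groups of the knockout to the wild-type shares, both with *Ccr7* and *Lef1* alone and chosen after seeing the data, left the counts within 1.5 times. In CD8 T cells *Socs3* was at 0.14 after thinning, *Socs1* at 0.10 without proliferating cells and *Il21r* at 0.06 with 500 to 4000 genes per cell. The sum of the feedback genes, knockout over wild type, was 0.0066 in CD8 T cells after thinning and 0.10 in Tregs under the narrower rule, which required a *Cd4* or *Foxp3* UMI and kept 1020 and 950 Tregs. The *Il6ra* ratio stayed between 0.78 and 1.44 in CD8 T cells and between 0.56 and 0.71 in Tregs, and that of *Il2rb* between -0.58 and -0.13 and between -0.39 and -0.31. In both CD8 pools *Il15ra* and *Cish* rested on few UMIs, 81 to 176 a pool. *Il6ra* (127 UMIs) and *Il4ra* (152) lay in the same range in wild-type CD8 T cells.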

Other observations

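Cells left out of both classes carried the 10 genes too. In the 271 wild-type and 271 knockout cells of neither class, which include cells with transcripts of both lineages, *Il2rb* stood at 226 and 158 CPM, *Il6ra* at 39.0 and 58.4 and *Cish* at 46.6 and 30.3. In the 65 wild-type and 55 knockout cells with more than 5000 genes, *Il6ra* stood at 7.51 and 13.2, *Il6st* at 17.4 and 25.9 and *Socs3* at 13.6 and 18.7, each below the level of every CD8 and Treg pool of its genotype.

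Many cells in which a gene of the set was detected held a single UMI of it. In CD8 T cells with *Il6ra*, 80.2% of wild-type and 69.3% of knockout cells held 1 UMI, and in Tregs with *Il2rb* 40.6% and 45.7% did. The 3 cells with the most UMIs supplied 9.27% of all *Cish* UMIs in wild-type CD8 T cells, the highest such share among the 10 genes, and 1.12% to 1.73% of those of *Il2rg* in any pool.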
